A study of Musca domestica with 8 samples.

Results

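Protease inhibitors and the peptidase angiotensin-converting enzyme were followed through the contigs (assembled transcript fragments) of the housefly strain 791spin. Contigs were taken by the words of their deposited annotation (serpin, protease or proteinase inhibitor, trypsin inhibitor, Kunitz, Kazal, accessory gland, seminal, sex peptide, and angiotensin-converting). The rule found 35 contigs among the 35834 contigs of the table. It used no read counts. The search was meant to take in seminal fluid proteins as well, but no contig was annotated as accessory gland, seminal or sex peptide protein, and none as Kazal inhibitor. The data therefore describe protease inhibitors with 3 angiotensin-converting enzyme contigs, and say nothing of seminal fluid proteins under those names.

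The samples are 8 pools of the spinosad resistant *M. domestica* strain 791spin, which was derived by spinosad selection of the multi-resistant strain 791a. They are numbered No.1 to No.8. All carry the same labels of strain, resistance to spinosad, adult stage, an age of 5 to 7 days, whole flies, and males and females pooled, and about 60 flies are given per extraction. Flies had sugar as their food before the RNA was taken. The series text also speaks of a susceptible strain, but the labels name none and nothing in them separates the 8 samples, so no groups were compared. The labels do not say whether the samples come from separate cultures, and the share of each sex in a pool is not given. In whole flies, fewer cells of a type and less RNA per cell cannot be told apart.

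Serpins are protease inhibitors that act as suicide substrates: the protease cuts an exposed loop, and the serpin then changes shape and traps the enzyme. In *Drosophila melanogaster* serpins hold back the protease cascades that activate Toll signalling and melanization, and other serpins belong to the seminal fluid. Kunitz (BPTI-like) and Bowman-Birk inhibitors are small proteins held by disulphide bonds that block serine proteases without being consumed, and cystatins do the same to cysteine proteases. Angiotensin-converting enzyme cuts dipeptides from the end of small peptides and in the buffalo fly it is known from the maturing male reproductive system.

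Library totals over all contigs ran from 10266664 to 16115208 counts. Counts were scaled to a total of 1000000 per sample (CPM), and 3 counts corresponded to 0.186 to 0.292 CPM. Intervals and limits given below account for counting error alone. Another scaling (TMM, which centres the bulk of the contigs) moved all values by 0.27 on the log2 scale in 2 samples, downwards in No.3 and upwards in No.5, and by at most 0.08 in the others. CPM of No.3 are therefore relatively high and those of No.5 relatively low. The labels describe normalized cDNA libraries, a treatment meant to lower abundant transcripts, so levels need not rank the genes by abundance in the fly. The read total that the paper gives for its normalized library is far below the counts of any sample here. Whether the counted reads came from normalized cDNA is therefore not settled.

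Counts were found on 33 of the 35 contigs. Their lengths ran from 281 to 1720 bp, with a median of 846 bp against 726 bp over all contigs. The 35 contigs were matched to 18 distinct proteins, 27 of them to proteins of flies. Of these 27, 22 were matched to the tsetse fly *Glossina morsitans morsitans* and 1 to *M. domestica* itself. The other 8 contigs were matched to proteins of a moth, bees, a tick, mammals, a ciliate and a virus, and their names are the least certain. None of the matched proteins is a RefSeq protein of the housefly genome, so the contigs are called here by their contig names. The members contain 26 contigs annotated as serpins or serine protease inhibitors, 3 as trypsin or chymotrypsin inhibitors, 2 as other protease inhibitors, 1 as Kunitz type inhibitor and 3 as angiotensin-converting enzyme.

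All 35 contigs together took 1358 ± 405 CPM (SD, n = 8), and their sum was lowest in No.7 with 888 CPM and highest in No.1 with 1919 CPM. Most of these counts, 67.1%, were on the single contig M_dom_c3658. Without that contig the sum was 458 ± 96.9 CPM (SD, n = 8) and was highest in No.3 with 618 CPM. The trypsin and chymotrypsin inhibitors had 946 ± 368 CPM, the serpins and serine protease inhibitors 284 ± 52.1 CPM and the other protease inhibitors 128 ± 75.6 CPM (SD, n = 8 each). Between the lowest and the highest sample the sums differed 1.62 times for the serpins and serine protease inhibitors, 2.85 times for the trypsin and chymotrypsin inhibitors and 4.88 times for the others. The sum of the serpin group was thus the steadiest of these, although single contigs within it were among the most variable. It was taken over 26 contigs, against 3 and 2 in the other groups, so the sums are not compared on equal terms.

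**Figure D1:**
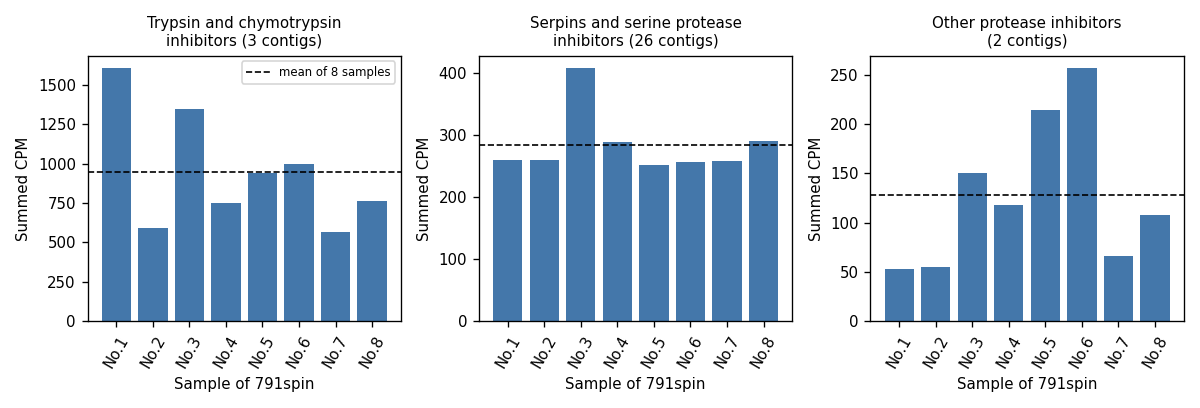
Summed CPM (bars, axes from 0) of the 3 role groups with more than a few counts in each of the 8 samples of 791spin, with the mean of the samples as a dashed line. The serpins and serine protease inhibitors lie between 252 and 291 CPM except in No.3 with 408 CPM, while the trypsin and chymotrypsin inhibitors are highest in No.1 and No.3 and the others in No.5 and No.6.

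To ask whether the contigs varied between samples beyond counting error, each was given a chi-square test over the 8 samples, adjusted by the Benjamini-Hochberg method over the 23597 contigs that averaged at least 5 counts per sample. Of the 35 inhibitor and peptidase contigs 20 reached that mean and 15 did not. All 20 varied beyond counting error, with adjusted p-values up to 5.25e-05, but so did 95.1% of all contigs tested. Without No.2, M_dom_rep_c13591 was no longer called. The 20 contigs also had more counts than most, with a median of 282 counts per sample against 50.8 over all contigs tested, so being called does not set them apart. The size of the variation was read beside it. A range of at least 10 times between the highest and the lowest sample, where samples with fewer than 3 counts were set to 3 counts, was found for 3 of the 20 contigs, or 15%, against 20.2% of all contigs tested. This order of the shares depends on the samples and on the range taken: without No.2 it was 3 of 20 against 10.7% of all contigs, without No.1 and No.2 it was 2 of 20 against 6.36%, and at 20 times it was 2 of 20 against 7.42%. The inhibitors are thus not shown to vary less or more than other contigs. The median range was 4.08 times for the 20 contigs and 5.02 times for all contigs tested. The 3 contigs with a wide range, M_dom_rep_c14968, M_dom_c10503 and M_dom_c24876, were all matched to the same tsetse protein, serine protease inhibitor 4.

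**Figure D2:**
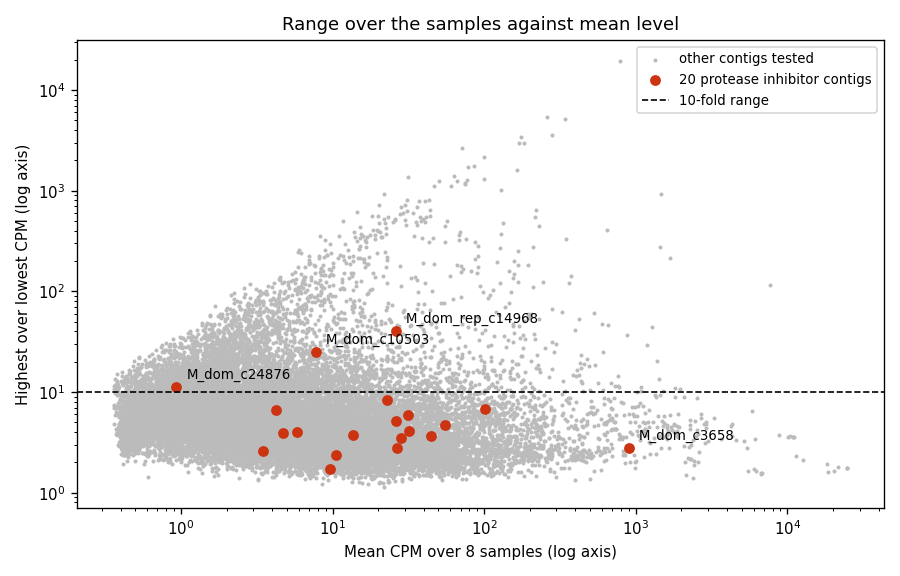
Highest over lowest CPM among the 8 samples of 791spin (log axis) against the mean CPM (log axis) for each of the 23597 contigs tested, with the 20 protease inhibitor contigs as large points and a dashed line at 10 times. Of the large points 3 lie above the line, the highest being M_dom_rep_c14968 at 40.7 times, and M_dom_c3658 stands far to the right at 900 CPM with a range of 2.78 times.

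The serpins and serine protease inhibitors contain 11 contigs with serine protease inhibitor 4 of the tsetse fly as their match, all to 1 and the same entry, and 8 of these were tested. Whether they are parts of 1 transcript, alleles or separate genes is not given, and reads of near-identical copies may have been divided between them. M_dom_rep_c14968 (755 bp) gave 65.4 CPM for No.1, 66.6 CPM for No.2, 51.2 CPM for No.3, 13.9 CPM for No.4, 5.00 CPM for No.5, 2.53 CPM for No.6, 1.64 CPM for No.7 and 2.10 CPM for No.8. No.1, No.2 and No.3 stood high, No.4 lay between, and the remaining samples were low. The range was 40.7 times, and still 31.3 times without No.1 and No.2, the samples known from earlier results of these data to stand apart for several contigs.

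The other 10 contigs with this match did not share that pattern as a sum. Most counted among them was M_dom_rep_c17003, which was highest in No.5. Single contigs could differ from the sum. M_dom_c24876 and M_dom_rep_c13591 were also higher in each of No.1 to No.4 than in No.5 to No.8, while M_dom_c10503 was lowest in No.1 and No.2. The 10 contigs were then summed. They gave 41.9 CPM for No.1, 34.9 CPM for No.2, 92.2 CPM for No.3, 53.2 CPM for No.4, 91.6 CPM for No.5, 54.0 CPM for No.6, 33.7 CPM for No.7 and 37.7 CPM for No.8, a range of 2.73 times. The share of the counts of this match that fell on M_dom_rep_c14968 was 60.9% in No.1 (95% Wilson interval 58.6% to 63.2%) and 65.6% in No.2 (63.1% to 68.0%). It was 35.7% in No.3 (33.3% to 38.2%) and 20.7% in No.4 (17.9% to 23.8%). In the remaining samples it lay between 4.48% in No.6 (3.08% to 6.49%) and 5.26% in No.8 (3.53% to 7.77%), and the intervals of these 4 samples overlapped. The intervals of No.1 and No.2 overlapped each other as well. Those of No.3 and of No.4 overlapped no other interval, and those of No.5 to No.8 did not reach those of No.1 and No.2. M_dom_rep_c14968 was picked for its wide range and the intervals hold counting error alone, so their separation is no test of a difference between samples.

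**Figure D3:**
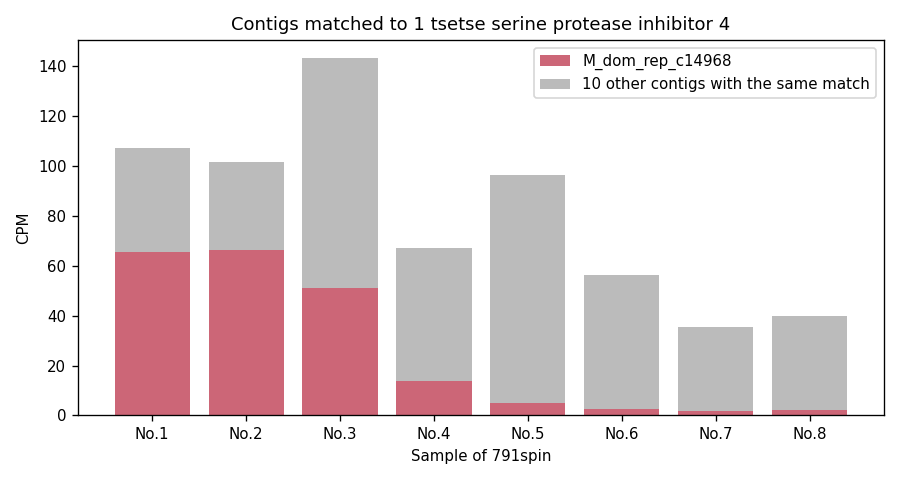
CPM on the 11 contigs matched to tsetse serine protease inhibitor 4 in each of the 8 samples of 791spin, divided into M_dom_rep_c14968 (lower part of the bar) and the sum of the 10 other contigs (upper part). M_dom_rep_c14968 makes up 60.9% and 65.6% of the bar in No.1 and No.2 and at most 5.26% in No.5 to No.8.

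M_dom_c10503 (1381 bp) has the same match and took the opposite places in No.1 and No.2. It gave 1.55 CPM for No.1 and 0.621 CPM for No.2, against 12.6 CPM for No.3, 7.93 CPM for No.4, 15.6 CPM for No.5, 9.55 CPM for No.6, 4.91 CPM for No.7 and 9.30 CPM for No.8. The range of 25.1 times was 10.04 times without No.2 and 3.17 times without both No.1 and No.2, so it rested on these samples. M_dom_c24876 (929 bp) was sparse. It gave 1.68 CPM for No.1, 1.04 CPM for No.2, 3.07 CPM for No.3 and 0.849 CPM for No.4. In No.5 to No.7 it had 0.195 to 0.344 CPM, and No.8 held no count, which allows up to 0.273 CPM. Its highest sample was therefore at least 11.2-fold higher than its lowest, and the range was 6.13 times without No.3.

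The other tested contigs of this match varied less. M_dom_rep_c17003 (1378 bp) ranged 8.33 times, with 56.9 CPM for No.5 and 39.8 CPM for No.3, 6.84 CPM for No.8 and 8.22 CPM for No.2, and between 13.6 and 22.1 CPM in the remaining samples. M_dom_rep_c15964 (985 bp) ranged 6.56 times, from 1.15 CPM for No.5 up to 7.57 CPM for No.3. M_dom_c32094 (945 bp) and M_dom_rep_c13591 (965 bp) had means of 4.71 ± 2.37 and 3.47 ± 1.23 CPM (SD, n = 8). M_dom_rep_c8224 (1112 bp) was among the 3 steadiest of the well counted inhibitors, with 10.53 ± 3.07 CPM and a range of 2.35 times. The contigs of this match therefore hold both the widest and some of the narrowest ranges of the tested inhibitors.

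A related tsetse entry, also named serine protease inhibitor 4 but deposited as a separate protein, was the match of M_dom_c35776 (1720 bp, the longest of the inhibitors). It gave 28.4 CPM for No.1, 15.8 CPM for No.2, 65.2 CPM for No.3, 36.0 CPM for No.4, 33.2 CPM for No.5, 28.7 CPM for No.6, 31.3 CPM for No.7 and 17.95 CPM for No.8. No.3 was the highest and No.2 and No.8 the lowest.

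M_dom_rep_c17477 (771 bp) carried the most counts of the serpins. Its match is serpine 1 of the tsetse fly, a name shared with the mammalian inhibitor of plasminogen activators. It gave 28.7 CPM for No.1, 37.4 CPM for No.2, 41.1 CPM for No.3, 32.0 CPM for No.4, 43.6 CPM for No.5, 64.2 CPM for No.6, 62.1 CPM for No.7 and 134.7 CPM for No.8. No.8 was above every other sample, and No.6 and No.7 came next. A second contig with this match, M_dom_rep_c34819 (667 bp), had at most 8 counts in a sample.

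M_dom_c5061 (1681 bp), matched to a tsetse serine protease inhibitor without a number, gave 38.0 CPM for No.1, 27.3 CPM for No.2, 79.1 CPM for No.3, 50.4 CPM for No.4, 30.9 CPM for No.5, 46.9 CPM for No.6, 64.8 CPM for No.7 and 21.9 CPM for No.8. Its highest samples were No.3 and No.7. M_dom_c863 (1273 bp), matched to serine protease inhibitor 1, was lower with 5.79 ± 2.79 CPM (SD, n = 8), from 2.64 CPM for No.8 up to 10.7 CPM for No.4. The 5 contigs of serine protease inhibitor 5 had 74 counts in all and were not tested.

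Serine protease inhibitor 27A is the tsetse counterpart by name of the *Drosophila* serpin that restrains Toll activation and melanization. Its contig M_dom_rep_c7671 (1514 bp) gave 9.43 CPM for No.1, 48.2 CPM for No.2, 19.7 CPM for No.3, 35.2 CPM for No.4, 20.6 CPM for No.5, 29.7 CPM for No.6, 11.02 CPM for No.7 and 35.3 CPM for No.8. The 4 samples with even numbers were all higher than the 4 with odd numbers, and No.6 and No.5 came closest to each other. The sample number is no condition. The same order was seen for 1 further inhibitor, M_dom_c18403 (1278 bp), annotated as a putative trypsin inhibitor from a tick match. It had 12.8, 24.3, 22.3 and 16.6 CPM for No.2, No.4, No.6 and No.8 and 8.005, 6.52, 11.6 and 6.89 CPM for No.1, No.3, No.5 and No.7. With TMM or DESeq2 size factors the values of M_dom_c18403 overlapped, while M_dom_rep_c7671 kept the order.

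Of the 20 tested inhibitors 2 thus had all even-numbered samples above all odd-numbered ones, against 8.05% of all contigs tested. None had the reverse order, against 5.8% of all contigs tested. Contigs named for yolk protein or vitellogenin, which are made by females, were summed beside them. They gave 207 CPM for No.2, 2811 CPM for No.4, 1827 CPM for No.6 and 3935 CPM for No.8, against 7.76 to 126 CPM in the odd-numbered samples. Of the 22 tested contigs of that list 17 had the even-numbered samples on top. The chorion and vitelline contigs, which form the eggshell, ran from no count in No.7 up to 397 CPM in No.8. For No.2, No.4, No.6 and No.8 the 27A contig had 48.2, 35.2, 29.7 and 35.3 CPM. The eggshell contigs had 0.345, 1.79, 27.0 and 397 CPM in these samples. The 4 contigs named for testis, axoneme or sperm had 270 to 1018 CPM in all and none separated the even from the odd numbers. These 4 were matched to distant organisms and are weak markers of males. The part of the sex of the flies in these values was not tested.

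Small inhibitors annotated within the serine protease group but belonging by name to other families follow. M_dom_c731 (599 bp), a BPTI-like inhibitor matched to the horn fly, gave 30.6 CPM for No.1, 15.5 CPM for No.2, 38.4 CPM for No.3, 48.6 CPM for No.4, 13.9 CPM for No.5, 16.2 CPM for No.6, 35.9 CPM for No.7 and 26.2 CPM for No.8. M_dom_c2782 (691 bp), annotated as a Bowman-Birk inhibitor from a ciliate match, had the narrowest range of the 20 tested inhibitors, with 9.68 ± 1.92 CPM (SD, n = 8) and 1.72 times between its extremes. The contig annotated as Kunitz type inhibitor from a rat match had no count in any sample, which allows up to 0.292 CPM in the shallowest.

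The trypsin and chymotrypsin inhibitors were dominated by M_dom_c3658 (358 bp), annotated as chymotrypsin inhibitor-like from a bee match. It gave 1505 CPM for No.1, 564 CPM for No.2, 1291 CPM for No.3, 707 CPM for No.4, 914 CPM for No.5, 953 CPM for No.6, 541 CPM for No.7 and 728 CPM for No.8. No.1 and No.3 were the highest and No.2 and No.7 the lowest. By counts it ranked 151 among all 35834 contigs. It was also the highest of the inhibitors per length, with 2515 ± 962 RPKM (CPM per kilobase of contig, SD, n = 8), and this held in 8 of 8 samples. The next were M_dom_rep_c17880 with 258 ± 189 RPKM, M_dom_c24601 with 112 ± 99.8 RPKM and M_dom_rep_c17477 with 72.0 ± 44.8 RPKM. Read sample by sample, M_dom_rep_c17880 was above M_dom_rep_c17477 in every sample. M_dom_c24601 was above M_dom_rep_c17880 in No.1 alone, with 333 against 96.4 RPKM, and below M_dom_rep_c17477 in No.7 and No.8.

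M_dom_c24601 (281 bp, the shortest of the inhibitors) was matched to a chymotrypsin inhibitor of another bee. It gave 93.6 CPM for No.1 and 52.6 CPM for No.3, 24.8 CPM for No.6, and between 15.9 and 17.1 CPM in the remaining samples. Its highest samples, No.1 and No.3, were also those of M_dom_c3658. The contrast was larger in M_dom_c24601, with a range of 5.89 times against 2.78 times in M_dom_c3658.

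**Figure D4:**
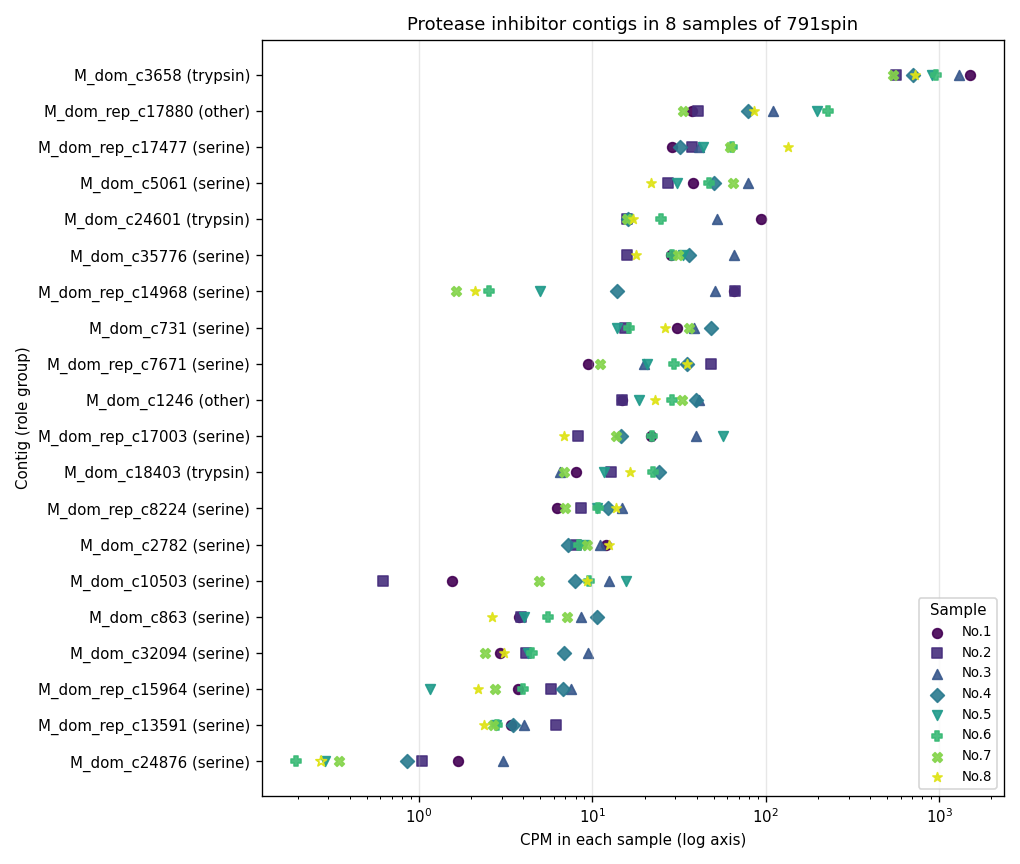
CPM (log axis) of the 20 tested protease inhibitor contigs, ordered by counts, in each of the 8 samples of 791spin (one symbol per sample, an open symbol at the value of 3 counts where no count was found). M_dom_c3658 lies apart on the right at 541 to 1505 CPM, and M_dom_rep_c14968 and M_dom_c10503 are spread the most, with No.1 and No.2 at opposite ends.

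Of the other protease inhibitors M_dom_rep_c17880 (392 bp) is the only one with a *M. domestica* match, a cysteine protease inhibitor. It gave 37.8 CPM for No.1, 40.6 CPM for No.2, 109.6 CPM for No.3, 78.7 CPM for No.4, 196 CPM for No.5, 228 CPM for No.6, 33.3 CPM for No.7 and 85.03 CPM for No.8. No.5 and No.6 were the highest and No.1, No.2 and No.7 the lowest, with a range of 6.85 times. M_dom_c1246 (598 bp), annotated as protease inhibitor 1 from a moth match, had 26.7 ± 10.6 CPM (SD, n = 8). Its highest samples were No.3 with 41.3 CPM and No.4 with 39.5 CPM, and its lowest No.1 and No.2 with 14.8 CPM each.

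The rule leaves out inhibitors annotated under other names, which were looked up after the values were seen. Of 3 contigs annotated as cystatins, M_dom_rep_c6229 (511 bp, cystatin B1 of *M. domestica*) had 693 ± 354 CPM (SD, n = 8). It gave 148 CPM for No.2 and 216 CPM for No.4, and 516 to 1013 CPM in the other samples. The highest values, in No.5 and No.6, fell in the samples that were also highest for M_dom_rep_c17880, but No.8 was close with 965 CPM. In No.1 and No.7 the cystatin M_dom_rep_c6229 had 839 CPM each, where M_dom_rep_c17880 was low with 37.8 and 33.3 CPM. Cystatin M_dom_c3207, named for sarcocystatin-A of a flesh fly, was highest instead in No.3 with 145 CPM and No.4 with 113 CPM. The contig of the tissue inhibitor of metalloproteases, M_dom_rep_c34446, had 9.96 ± 5.04 CPM.

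Angiotensin-converting enzyme was barely counted. Its 3 contigs were all matched to the enzyme of the buffalo fly and had 39 counts in all 8 samples together. M_dom_rep_c14581 (846 bp) had between 1 count in No.1 and 9 counts in No.6. M_dom_rep_c7134 (1381 bp) had 3 counts in No.2, 2 in No.4 and 1 in No.3. M_dom_rep_c12250 (1328 bp) had 2 counts in No.8 and 1 in No.3. Their sum was 0.427 ± 0.247 CPM (SD, n = 8), and none reached the mean count needed for the test. Differences between samples were therefore not tested for these contigs.

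Contigs named for Toll signalling, melanization or bacterial recognition were taken as a list of 14 contigs. Serpins are known to restrain the Toll and melanization cascades in *Drosophila*. Whether each listed contig belongs to these cascades was not tested. Of these 11 were tested, 10 varied beyond counting error, against 95.1% of all contigs tested, and 1 had a range of at least 10 times, against 20.2%, so the counts say nothing particular about the list. Their median range was 4.29 times, close to the 4.08 times of the inhibitors and below the 5.02 times of all contigs tested. M_dom_c4179, annotated as prophenoloxidase activating factor of *M. domestica*, a protease that switches on melanization, gave 21.6 CPM for No.1 and 20.9 CPM for No.2. It gave 102 CPM for No.3, 54.0 CPM for No.4, 137 CPM for No.5, 148 CPM for No.6, 73.7 CPM for No.7 and 76.5 CPM for No.8. A lower contig also named for a prophenoloxidase activating factor, M_dom_c19714, had another order. It ranged 13.4 times, from 0.552 CPM for No.2 up to 7.38 CPM for No.3, with 3.02 CPM for No.6. M_dom_rep_c6670, annotated as peptidoglycan recognition protein SC, which binds bacterial cell walls, gave 35.2 CPM for No.1, 120 CPM for No.2, 178 CPM for No.3, 170 CPM for No.4, 143 CPM for No.5, 102 CPM for No.6, 40.2 CPM for No.7 and 45.9 CPM for No.8. The 27A contig had its highest value in No.2, whereas M_dom_c4179 was highest in No.6 and the recognition protein in No.3. Like the 27A contig, the recognition protein was lowest in No.1 and No.7.

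Which sample held the highest or lowest value was counted for the tested inhibitors alone, and not over all contigs tested. Such counts are therefore not shown to be particular to the inhibitors, whichever scaling is used. The highest value of the 20 inhibitors fell in No.3 for 7 contigs, and in No.7 for none. With TMM the number in No.3 was 4 and with DESeq2 size factors 3, so this count depends on the scaling. The lowest value fell in No.8 for 5 contigs and in No.7 and No.2 for 4 contigs each, and with TMM these numbers were the same. With DESeq2 size factors they were 5 in No.8, 5 in No.7 and 3 in No.2.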

How the data were processed

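The authors assembled reads of a normalized cDNA library into contigs and annotated them by BLASTX. The deposited counts are whole numbers of reads per contig, not normalized, with contig length and annotation. Their number exceeds the reads that the paper reports for that library. A deposited scaled signal (counts times 1 factor per sample) was not used. For the aligner and the counting program: not given in the sources used here. Columns were matched to samples by title.

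CPM were computed on the library totals (10266664 to 16115208 counts) and RPKM by dividing by contig length. Contigs averaging at least 5 counts per sample entered a chi-square test of their counts against the library totals, at an adjusted p of 0.05. The test measures counting error only and was tested on simulated data. Alternatives used TMM (edgeR 4.0.16), DESeq2 1.42.0 size factors (R 4.3.3), other count minimums, other ranges, and fewer samples or contigs. The remaining computations ran in Python 3.11.15 with statsmodels 0.14.6, scipy 1.17.1, numpy 2.4.6, matplotlib 3.10.9 and pandas 2.3.3.

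The members, lists and tests were chosen with earlier results of these data known. Named contigs were the 3 most counted of each role group, and among those with a mean count of at least 50 the 5 with the widest and the 3 with the narrowest range. Others that are named were chosen after their values were seen, as was the grouping by shared match. The list of male contigs was searched in the protein name alone and took axoneme as well as axonemal, since a search of the whole annotation also matched species names. Sequences of the contigs were not used here.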

Additional observations from a re-analysis of the deposited data

Results flagged for a closer look

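Of 25 sets of 8 values checked, 5 had 1 sample far from the other samples, and about 1 in 20 such sets would be expected by chance. That rate holds for independent sets of normally distributed values. The sets here include sums as well as contigs within those sums, so no excess over chance is shown. The summed serpins and serine protease inhibitors had 407.7 CPM in No.3, and the next highest sample had 291 CPM. With TMM the values were 337 CPM in No.3 and 305 CPM in the next sample, and No.3 no longer stood far apart. M_dom_c35776 had 65.2 CPM for No.3 and no more than 36.0 CPM elsewhere, and with TMM it had 53.9 CPM and at most 40.1 CPM, so it did not stand far apart on that scale either. M_dom_rep_c17477 had 134.7 CPM for No.8 and no more than 64.2 CPM elsewhere. M_dom_c24601 had 93.6 CPM for No.1 and no more than 52.6 CPM elsewhere. M_dom_rep_c13591 had 6.21 CPM for No.2 and no more than 4.02 CPM elsewhere. These last 3 stood far apart with TMM and with DESeq2 size factors as well. No label separates these samples, and the cause was not tested.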

How the results depend on the processing

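The number of contigs varying beyond counting error was 22439, and 11843 with a mean count of at least 50, because fewer contigs were tested. With no count minimum 26267 of 33418 contigs were called, and 27 of 33 members. Expected counts are then often too small for this test. With a sample left out it was 20786 to 22428, and for the inhibitors 19 to 20. M_dom_rep_c13591 was the 1 not called without No.2, and it was not called without both No.1 and No.2 either. The number of inhibitors with a 10-fold range was 3, against 2 to 3 with a sample left out and 2 without No.1 and No.2, an alternative chosen after seeing the data. The share of all contigs tested with such a range was 20.2%, against 10.7% without No.2 and 6.36% without No.1 and No.2, so that the share of the inhibitors went from below to above it. With a range of 5 times it was 8, where 50.2% of all contigs tested passed. Inhibitors with all even-numbered samples on top numbered 2, and 1 with TMM or with DESeq2 size factors. Without the most counted contig the sums fell to 458 CPM for all members, 228.7 CPM for serpins and serine protease inhibitors, 45.2 CPM for trypsin and chymotrypsin inhibitors, 26.7 CPM for other protease inhibitors and 0.0962 CPM for angiotensin-converting enzymes, as part of the sum was removed. With the 10 most counted contigs taken out of the totals the serpin group had 350.5 CPM, since totals became smaller. With a sample left out the sums were 1278 to 1425, 267 to 289, 851 to 999.99, 109 to 139 and 0.363 to 0.479 CPM for these groups in the same order. The means of single named contigs moved by less than the spread between samples under all alternatives run. This is no sign of steadiness, because leaving out a single sample cannot move a mean further than that spread. A contig with a wide spread could also move far and stay within it, as M_dom_rep_c14968 did without No.1 and No.2. No paired analysis was possible because all samples belong to 1 labelled group. Depth limits the 15 untested contigs: with no count, up to 0.292 CPM remains possible in No.6, the smallest library.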
